A study of Mus musculus with 12 samples.

Results

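The sarcomere genes described here are 10 genes of the Z-disc, the M-band and titin: Ttn, Myom1, Myom2, Actn2, Ldb3, Tcap, Csrp3, Nebl, Mypn and Myoz2. They were chosen by gene symbol, and all 10 were measured, out of 18194 genes on the arrays. A probe set, the group of probes that together report 1 transcript region, counted for a gene if the annotation gave it that single symbol. The 10 genes had 23 probe sets, and 5 of the genes had more than 1, in which case the set brightest on average across the 12 arrays stood for the gene and the others are given beside it.

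The study measured RNA of mouse embryonic heart ventricles on Affymetrix arrays at 14.5 dpc (days post coitum). Wild-type embryos (WT) were of the outbred strain CD1. Embryos of the other genotype (KO) were Nos3-/-, lacking endothelial nitric oxide synthase, and came from the strain B6.129P2-Nos3tm1unc/J. The left ventricle (LV) and right ventricle (RV) were dissected apart, each sample pooled tissue of 15 to 30 embryos, and each of the 4 groups had 3 arrays. The allele and the strain changed together, so their parts in any genotype difference cannot be told apart. The p-values measure the spread between pools, not between embryos, and the number of arrays limits the precision. The ventricles were measured whole, so fewer cells of a type and less RNA per cell cannot be told apart.

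A sarcomere is the contractile unit of striated muscle, bounded by Z-discs, where the thin filaments of neighbouring units are anchored, and held together at its middle by the M-band, which cross-links the thick filaments. Titin, a giant elastic protein, spans from the Z-disc to the M-band and is a scaffold for both. In the embryonic ventricle these structures are built while the heart already beats, and defects in several of their genes cause heart muscle disease in humans.

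In the left ventricle, 4 of the 10 genes were higher in KO than in WT: Ldb3, Actn2, Myom1 and Mypn, by 0.51 to 0.70 on the log2 scale, or 1.42-fold to 1.62-fold. Myom2 was lower, at 0.565 times the WT level. These 5 genes passed the test, limma with Benjamini-Hochberg adjustment over all 18194 genes and a threshold of 0.05, and are termed called. Across all genes, 30.9% were called in this comparison, 18.6% higher and 12.3% lower. The median difference of the 10 genes was 0.29, against -0.01 over all genes. In the right ventricle none of the 10 genes was called between genotypes with limma, against 8.19% of all genes (4.61% higher and 3.58% lower). Between the ventricles, Myom2 was the only one of the 10 genes called. It was higher in the right ventricle by 1.38 in WT and by 1.63 in KO.

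**Figure D1:**
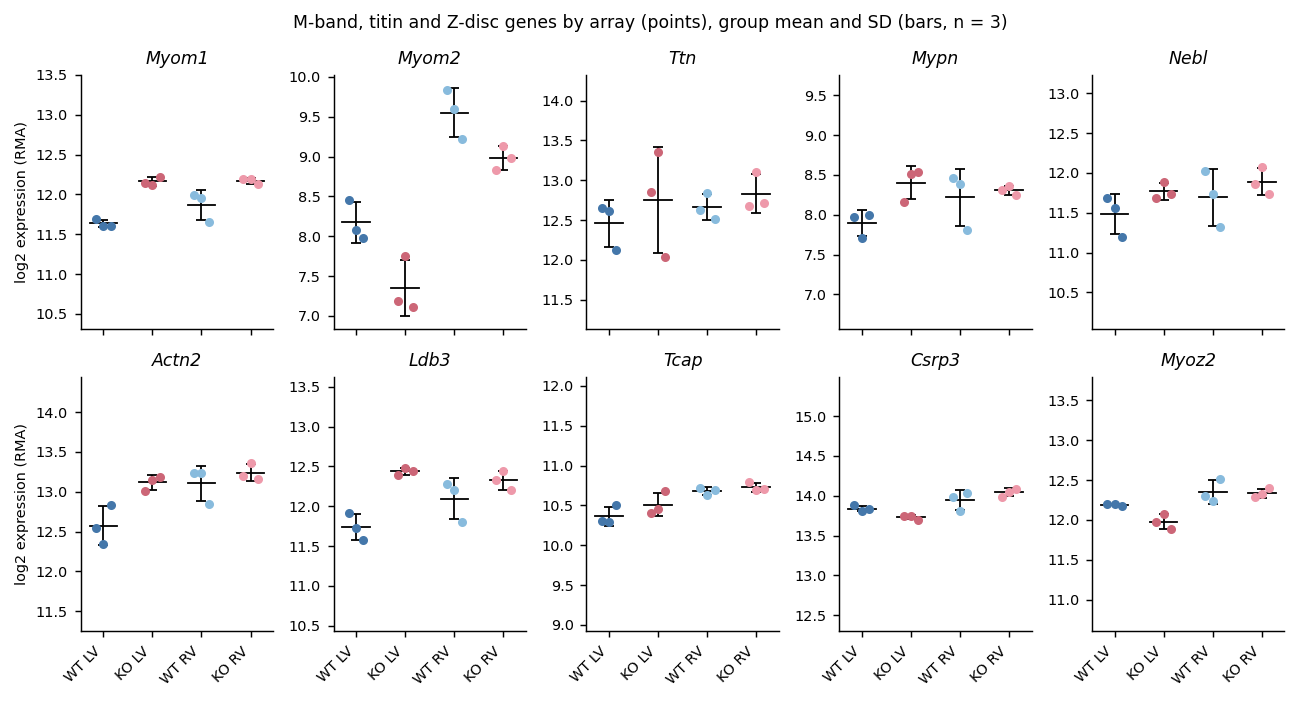
RMA log2 expression (vertical axis, each panel spanning the same number of log2 units) of the 10 genes in the 4 groups of 3 arrays (points), with the group mean and SD (bars). Myom2 shows the widest separation of groups, from a mean of 7.35 in KO LV to 9.55 in WT RV, and Ttn the widest spread within a group, with an SD of 0.67 in KO LV.

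Among the M-band genes, Myom2 encodes myomesin 2 (M-protein), which cross-links myosin filaments and is found in fast skeletal fibres and in the heart. Its probe set 1457435_x_at read 8.46, 8.08 and 7.98 in WT LV and 7.19, 7.75 and 7.11 in KO LV. In the right ventricle the WT values were 9.83, 9.60 and 9.22 and the KO values 8.83, 9.13 and 8.98. Every KO array lay below every WT array of the same ventricle, and every RV array lay above every LV array of either genotype. The group means, highest first, were 9.55 ± 0.31 in WT RV, 8.98 ± 0.15 in KO RV, 8.17 ± 0.25 in WT LV and 7.35 ± 0.35 in KO LV (SD, n = 3 each).

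The genotype difference of Myom2, KO minus WT, was -0.82 in the left ventricle (SE 0.19, limma adjusted p = 0.00479). In the right ventricle it was -0.57 (SE 0.19, limma adjusted p = 0.0738), which did not pass. The samples carry replicate numbers, and with the number as a block the right ventricular difference passed (limma adjusted p = 0.0433). It also passed without WT RV replicate 3 (-0.735, limma adjusted p = 0.0414) and without KO LV replicate 2 (limma adjusted p = 0.0463), which enters through the shared estimate of the spread. The difference between these effects was 0.25 (SE 0.26, limma adjusted p = 0.679), so the genotype effect was not shown to differ between ventricles. The ventricle difference, right minus left, was 1.38 in WT (SE 0.19, limma adjusted p = 0.00274), or 2.60-fold. It was 1.63 in KO (SE 0.19, limma adjusted p = 0.000364), or 3.10-fold. By size these were rank 6 and rank 4 from the top among 18194 genes, in comparisons where 0.984% (WT) and 1.14% (KO) of genes were called in either direction, and 0.764% and 0.55% were called higher.

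Of the other Myom2 probe sets, 1450917_at read 7.49, 7.15 and 7.22 in WT LV, 6.14, 6.69 and 6.23 in KO LV, 8.73, 8.50 and 8.12 in WT RV, and 7.45, 7.98 and 7.90 in KO RV. The order of the group means was that of the first set, and the groups of each genotype comparison were again apart. Tested over all probe sets, its difference was -0.93 in the left ventricle (limma adjusted p = 0.00375) and -0.67 in the right (limma adjusted p = 0.0523). The set 1438175_x_at gave -0.45 (limma adjusted p = 0.14) and -0.40 (limma adjusted p = 0.283), with overlapping genotypes in both ventricles. Both sets were called higher in the right ventricle in each genotype, by 1.16 to 1.42. The last set, 1438372_at, lay at 3.15 to 3.61 on all arrays, below the median of all values, 5.67. The suffix x in a set's name marks probes that may also bind other transcripts.

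**Figure D2:**
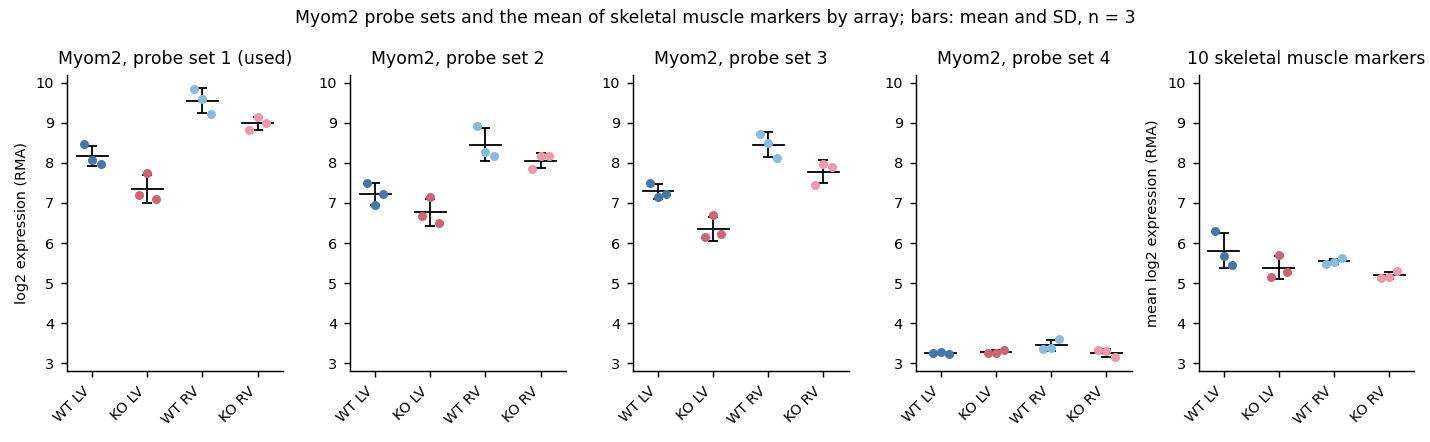
RMA log2 expression of the 4 Myom2 probe sets and the mean of 10 skeletal muscle marker genes (vertical axes) in the 4 groups of 3 arrays (points), with mean and SD (bars). In the first 3 panels RV lies above LV in each genotype, while the skeletal marker mean lies between 5.14 and 6.29 on all arrays and is not higher in RV.

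Skeletal muscle also expresses Myom2, so its markers were set beside the values. Of 10 such markers, 4 (Myod1, Myf5, Myf6 and Myh8) lay below the median of all values on all 12 arrays, and the other 6 reached it on at least 1. The mean of the 10 was 6.29, 5.67 and 5.46 in WT LV and 5.16, 5.71 and 5.29 in KO LV, and it ran from 5.49 to 5.62 in WT RV and from 5.14 to 5.29 in KO RV. In KO LV 0 of the 10 were called higher and 2 lower, Myog (-0.98) and Myh8 (-0.53). In KO RV 0 were called higher and 1 lower, Myh8 (-0.83). The highest marker mean of each left ventricular group was on the array with the highest Myom2 of that group. With this mean as a term in the model, an alternative added after the data were seen, the left ventricular difference of Myom2 was -0.55 (limma adjusted p = 0.0569) and no longer called. Actn2 (0.48, limma adjusted p = 0.0542) and Mypn (0.54, limma adjusted p = 0.0658) also lost their left ventricular calls with that term. Without it their differences were 0.54 and 0.51. Over all genes, 3680 were called in that comparison with the term, in place of 5617. The right minus left differences remained called with that term.

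Myom1 encodes myomesin 1, the M-band cross-linker present in all striated muscle. It read 11.69, 11.61 and 11.61 in WT LV and 12.15, 12.12 and 12.22 in KO LV. In the right ventricle the WT values were 11.99, 11.96 and 11.65 and the KO values 12.19, 12.20 and 12.13. In both ventricles the KO arrays lay above all WT arrays, and WT RV replicate 3 lay apart from the other WT RV arrays, at the WT LV level. The left ventricular difference was 0.53 (SE 0.09, limma adjusted p = 0.00123), 1.44-fold, and the right was 0.31 (SE 0.09, limma adjusted p = 0.0613). Without WT RV replicate 1 the right ventricular difference was 0.37 and passed (limma adjusted p = 0.0396). Without WT RV replicate 3 it was 0.20, its lowest value with 1 array left out, and did not pass. The myomesins thus stood on opposite sides of 0 in both genotype comparisons. The third myomesin gene, Myom3, had group means of 4.22 to 4.49, below the median of all values.

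Ttn encodes titin. Its probe set 1427445_a_at read 12.65, 12.61 and 12.12 in WT LV, 12.85, 13.36 and 12.04 in KO LV, 12.63, 12.84 and 12.52 in WT RV, and 12.68, 13.11 and 12.71 in KO RV. The groups overlapped in every comparison, and KO LV held both the highest and the lowest of the 12 values. The SD of Ttn within groups was 0.392, larger than that of 99.1% of genes, where the median gene had 0.137. The left ventricular difference was 0.29 (SE 0.25, limma adjusted p = 0.422) and the right was 0.17 (SE 0.25, limma adjusted p = 0.707). Without KO LV replicate 3 the left ventricular difference was 0.65 (limma adjusted p = 0.0316), and without KO LV replicate 2 it was -0.015. The mean of 4 nuclear noncoding RNAs (Malat1, Meg3, Kcnq1ot1 and Airn) was 8.64 on KO LV replicate 3, the lowest of the 12 arrays, the others having 9.83 to 11.26. Without the arrays of the lowest and the highest such mean, KO LV replicate 3 and WT LV replicate 2, the left ventricular difference of Ttn was 0.72 (limma adjusted p = 0.0427) and called.

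All 5 other Ttn sets also had their highest left ventricular KO value on replicate 2 and their lowest on replicate 3. The set 1427446_s_at read 12.22 against 10.71, and 1444083_at read 10.81 against 9.02. No Ttn set passed the test over all probe sets in a genotype comparison, and the left ventricular differences ran from -0.02 to 0.46. The set 1446450_at lay at 3.95 to 4.59 on all arrays, below the median of all values.

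Among the Z-disc genes, Actn2 encodes the muscle alpha-actinin that cross-links thin filaments at the Z-disc. Actn2 read 12.54, 12.35 and 12.83 in WT LV, 13.01, 13.15 and 13.19 in KO LV, 13.23, 13.24 and 12.85 in WT RV, and 13.20, 13.36 and 13.16 in KO RV. All other groups lay above WT LV on every array, and WT RV replicate 3 was the lowest of the RV arrays. The left ventricular genotype difference was 0.54 (SE 0.13, limma adjusted p = 0.0072), 1.46-fold, and the right was 0.13 (SE 0.13, limma adjusted p = 0.55). The left ventricular call was lost with the level of spiked poly-A control RNA as a term in the model (0.44, limma adjusted p = 0.0892) and without the 2 arrays of extreme nuclear RNA (0.395, limma adjusted p = 0.0969). The right minus left difference was 0.53 in WT (SE 0.13, limma adjusted p = 0.0772) and 0.12 in KO (SE 0.13, limma adjusted p = 0.825). Without WT RV replicate 3, or without WT LV replicate 3, the WT ventricle difference was 0.66 and passed (limma adjusted p = 0.0106 and 0.023). The WT LV arrays enter both the genotype comparison of the left ventricle and the ventricle comparison of WT.

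Ldb3 encodes the PDZ-LIM protein ZASP (Cypher), which binds alpha-actinin at the Z-disc. Its probe set 1433783_at read 11.91, 11.73 and 11.58 in WT LV, 12.39, 12.48 and 12.44 in KO LV, 12.28, 12.21 and 11.80 in WT RV, and 12.33, 12.44 and 12.20 in KO RV. The left ventricular groups were apart and the right ventricular ones overlapped. The left ventricular difference was 0.70 (SE 0.12, limma adjusted p = 0.00125), 1.62-fold, and the right was 0.23 (SE 0.12, limma adjusted p = 0.27). The other sets gave left ventricular differences of 0.28 (1416752_at, limma adjusted p = 0.0544) and 0.34 (1451999_at, limma adjusted p = 0.332), and right ventricular ones of -0.24 (limma adjusted p = 0.17) and -0.31 (limma adjusted p = 0.483). The sets therefore differed in sign in the right ventricle, and Ldb3 makes several splice forms, which were not resolved here.

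Mypn encodes myopalladin, which ties alpha-actinin to nebulin-family proteins and binds the ankyrin repeat protein Ankrd1. Its probe set 1435813_at read 7.97, 7.71 and 8.0 in WT LV, 8.16, 8.51 and 8.53 in KO LV, 8.46, 8.38 and 7.81 in WT RV, and 8.31, 8.36 and 8.25 in KO RV. The left ventricular groups were apart, and WT RV replicate 3 was the lowest RV value. The left ventricular difference was 0.51 (SE 0.15, limma adjusted p = 0.0239), 1.42-fold. The call was lost without WT LV replicate 2 (limma adjusted p = 0.0946), KO LV replicate 2 (limma adjusted p = 0.0845) or KO LV replicate 3 (limma adjusted p = 0.0886), with differences of 0.42 to 0.45. The right ventricular difference was 0.09 (SE 0.15, limma adjusted p = 0.747). The other set, 1441551_at, was lower in KO LV, at 5.64, 5.48 and 5.74 against 6.02, 5.82 and 6.01 in WT LV, a difference of -0.33 (limma adjusted p = 0.0404 over all probe sets). The 2 sets thus went in opposite directions, and with the mean of both the difference was 0.09 (limma adjusted p = 0.518). Over the 12 arrays 1441551_at averaged 5.80, near the median of all values, 5.67, and the used set averaged 8.20.

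Nebl encodes nebulette, the cardiac relative of nebulin. Its probe set 1438452_at read 11.68, 11.56 and 11.20 in WT LV, 11.69, 11.89 and 11.73 in KO LV, 12.03, 11.74 and 11.32 in WT RV, and 11.86, 12.07 and 11.74 in KO RV. The left ventricular groups did not overlap, though their nearest arrays read 11.69 and 11.68, and the difference of 0.29 (SE 0.16, limma adjusted p = 0.202) did not pass. The sets 1439897_at and 1451846_at were called higher in KO LV over all probe sets, by 0.47 (limma adjusted p = 0.00742) and 0.44 (limma adjusted p = 0.0454). Of these, 1451846_at averaged 5.45 over the 12 arrays, below the median of all values, 5.67. Whether Nebl was called therefore depended on the probe set.

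Tcap, Csrp3 and Myoz2 encode smaller Z-disc proteins: telethonin, which caps the end of titin, muscle LIM protein, and calsarcin 1, which binds calcineurin. Tcap read 10.30, 10.29 and 10.50 in WT LV, 10.40, 10.45 and 10.68 in KO LV, 10.72, 10.63 and 10.69 in WT RV, and 10.79, 10.69 and 10.70 in KO RV. The RV arrays of each genotype lay above its LV arrays, by 0.32 on average in WT (limma adjusted p = 0.126) and 0.22 in KO (limma adjusted p = 0.437), and neither passed. Csrp3 read 13.88, 13.81 and 13.83 in WT LV, 13.75, 13.75 and 13.70 in KO LV, 13.99, 13.81 and 14.04 in WT RV, and 13.99, 14.05 and 14.09 in KO RV. Its pooled SD within groups, 0.0695, was the smallest of the 10 genes. Myoz2 read 12.20, 12.20 and 12.18 in WT LV, 11.98, 12.07 and 11.88 in KO LV, 12.30, 12.24 and 12.52 in WT RV, and 12.29, 12.32 and 12.40 in KO RV.

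Csrp3 and Myoz2 lay below WT on every KO LV array, but the differences of -0.11 (SE 0.08, limma adjusted p = 0.354) and -0.22 (SE 0.09, limma adjusted p = 0.0846) did not pass. In KO, both lay higher on every RV array than on every LV array, by 0.31 (SE 0.08, limma adjusted p = 0.111) and 0.36 (SE 0.09, limma adjusted p = 0.0869). In WT these ventricle differences were 0.11 for Csrp3, whose groups overlapped, and 0.16 for Myoz2, whose RV arrays also lay above all LV arrays. Neither passed. Without WT RV replicate 3, whose absence changes the shared estimate of the spread, both Myoz2 differences passed (limma adjusted p = 0.0412 for the genotypes in LV and 0.031 for the ventricles in KO).

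Counting groups that did not overlap, 5 of the 10 genes were higher and 3 lower in KO LV, where 23.8% and 20.6% of all genes were. In the right ventricle 1 was higher and 1 lower, against 11.8% and 17.6% of all genes. Right over left, 4 of the 10 were apart and higher in WT (10.9% of all genes) and 4 in KO (9.24%), and none was apart and lower, as 4.85% and 10.4% of all genes were. No interaction of genotype and ventricle was called with limma for any of the 10 genes, where 0.022% of all genes were. Those furthest below 0 were Ldb3 (-0.47, limma adjusted p = 0.314), Mypn (-0.42, limma adjusted p = 0.393) and Actn2 (-0.41, limma adjusted p = 0.347). Without WT RV replicate 3 the interactions of Ldb3 (-0.62, limma adjusted p = 0.031) and Mypn (-0.62, limma adjusted p = 0.0444) passed, and 5 of the 10 genes were called higher in WT RV than in WT LV. With that array left out, 7.19% of all genes had a called interaction and 9.53% were called between the WT ventricles.

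**Figure D3:**
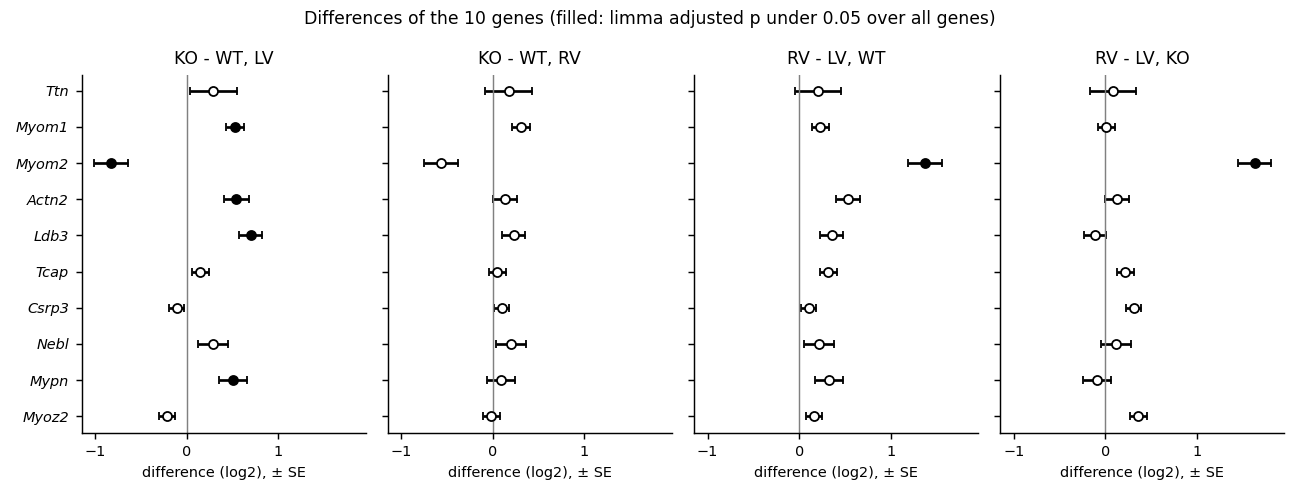
Differences on the log2 scale (horizontal axis, with the SE as bars) of the 10 genes (rows) in the 4 pairwise comparisons, with filled points for genes called by limma. In the left ventricular genotype comparison 4 filled points lie right of 0 and Myom2 lies left at -0.82, and in both ventricle comparisons the sole filled point is Myom2.

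The genes called higher together in KO LV were Myom1, Actn2, Ldb3 and Mypn, and their promoters are shown for that reason, a choice made after their values were seen. RefSeq promoter sequences, from 250 bases before to 50 after the start of the gene on assembly GRCm38.p6, were listed for 8 of the 10 genes (all but Myom2 and Tcap). The windows lie at chr17:71019307-71019606 on the plus strand for Myom1, and on the minus strand at chr13:12340683-12340982 for Actn2, chr14:34588632-34588931 for Ldb3 (the first of 2 entries) and chr10:63203903-63204202 for Mypn. Each is written 5′ to 3′ on the strand of the gene. Capitals mark matches, on either strand, to the CArG box (bound by serum response factor), the MEF2 site, the GATA box AGATAA and the MCAT element CATTCC.
Myom1: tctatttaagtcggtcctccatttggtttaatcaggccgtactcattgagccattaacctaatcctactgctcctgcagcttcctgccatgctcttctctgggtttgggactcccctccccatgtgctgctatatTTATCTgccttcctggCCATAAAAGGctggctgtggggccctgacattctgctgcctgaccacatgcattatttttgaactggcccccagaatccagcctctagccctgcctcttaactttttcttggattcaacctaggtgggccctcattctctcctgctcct
Actn2: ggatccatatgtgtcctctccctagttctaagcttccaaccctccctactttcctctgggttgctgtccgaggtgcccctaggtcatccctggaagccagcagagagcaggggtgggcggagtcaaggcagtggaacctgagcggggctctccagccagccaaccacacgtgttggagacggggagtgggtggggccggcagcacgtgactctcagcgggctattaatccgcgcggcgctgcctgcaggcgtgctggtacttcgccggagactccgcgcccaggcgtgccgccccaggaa
Ldb3: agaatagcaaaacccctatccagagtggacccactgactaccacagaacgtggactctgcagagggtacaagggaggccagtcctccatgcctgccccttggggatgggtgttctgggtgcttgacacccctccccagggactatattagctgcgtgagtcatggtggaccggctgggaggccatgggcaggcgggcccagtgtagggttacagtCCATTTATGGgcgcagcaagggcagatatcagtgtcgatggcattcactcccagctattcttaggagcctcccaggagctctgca
Mypn: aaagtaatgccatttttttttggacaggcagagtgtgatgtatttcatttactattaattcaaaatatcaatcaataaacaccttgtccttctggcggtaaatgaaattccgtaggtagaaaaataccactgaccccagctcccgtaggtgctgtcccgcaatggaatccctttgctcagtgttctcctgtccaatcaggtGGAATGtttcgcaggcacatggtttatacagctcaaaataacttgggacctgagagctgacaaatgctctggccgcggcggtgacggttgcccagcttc

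The Myom1 window held a CArG box whose first base lies at -99 from the start site and, on the reverse strand, an AGATAA at -115. The Ldb3 window held a CArG box at -35, and the Mypn window a CATTCC at -49 on the reverse strand. The Actn2 window held none of these 4 motifs. Of 32851 mouse promoters of that length, 1.63% held a CArG box, 3.19% a MEF2 site, 11.2% AGATAA and 14.7% CATTCC. The E-box CANNTG, left in lower case, occurred 3 times each in the Myom1, Actn2 and Mypn windows and 0 times in that of Ldb3, and 72.3% of all promoters held at least 1. A match is a description of the letters.

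Of 50 related genes of the same structures (other Z-disc and M-band proteins, titin partners, chaperones of the sarcomere and a splicing factor), 47 were measured. In KO LV 15 of them were higher and 5 lower, or 42.6% against 30.9% of all genes, with a median difference of 0.12. The count of 20 became 1 with the mean of heart muscle markers as a term in the model, where 276 of all genes were called in place of 5617. It became 9 with the poly-A control term (2601 of all genes) or without the 2 arrays of extreme nuclear RNA (2738 of all genes). The 5 largest rises were of Actn1, a non-muscle alpha-actinin (0.97), Synpo2, an actin-bundling Z-disc protein (0.83), Ankrd1, a stress-responsive titin partner (0.80), Cmya5, which binds alpha-actinin (0.67), and Pdlim3, an alpha-actinin-associated LIM protein (0.65). The falls were of Capn3, a muscle calpain that binds titin (-2.11), Pdlim5 (-0.42), Ankrd2 (-0.38), Csrp2 (-0.30) and Smyd2 (-0.27). The Pdlim5 probe sets disagreed, from -1.27 to 0.53, and the other Capn3 set gave -1.06. The other Actn1 sets, which averaged 8.61 and 5.30 over the 12 arrays, gave 0.24 and 0.81.

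Capn3 read 8.82, 8.90 and 8.82 in WT LV, 6.77, 6.64 and 6.79 in KO LV, 8.15, 8.08 and 8.84 in WT RV, and 6.40, 6.21 and 6.51 in KO RV. All KO arrays lay below all WT arrays, with differences of -2.11 in the left ventricle (limma adjusted p = 1.99e-06) and -1.98 in the right (limma adjusted p = 3.67e-06). The other Capn3 set gave a smaller right ventricular difference, -0.62. In the right ventricle 3 of the 47 genes were called, or 6.38% against 8.19% of all genes. Capn3 fell, and Pdlim3 (0.86, limma adjusted p = 0.000804) and Synpo2 (0.45, limma adjusted p = 0.0404) rose. The other Synpo2 sets gave 0.02, -0.58 and 0.16 in the right ventricle and 0.20, -0.07 and 0.39 in the left. They averaged 5.43, 4.81 and 4.26 over the 12 arrays, below the median of all values, 5.67. Between ventricles, Ankrd1 was higher in WT RV (0.78, limma adjusted p = 0.0336), and Pdlim3 (0.59, limma adjusted p = 0.0327) and Csrp2 (0.50, limma adjusted p = 0.0346) in KO RV. Of the 47 genes 0 had a called interaction in limma, where 0.022% of all genes did.

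**Figure D4:**
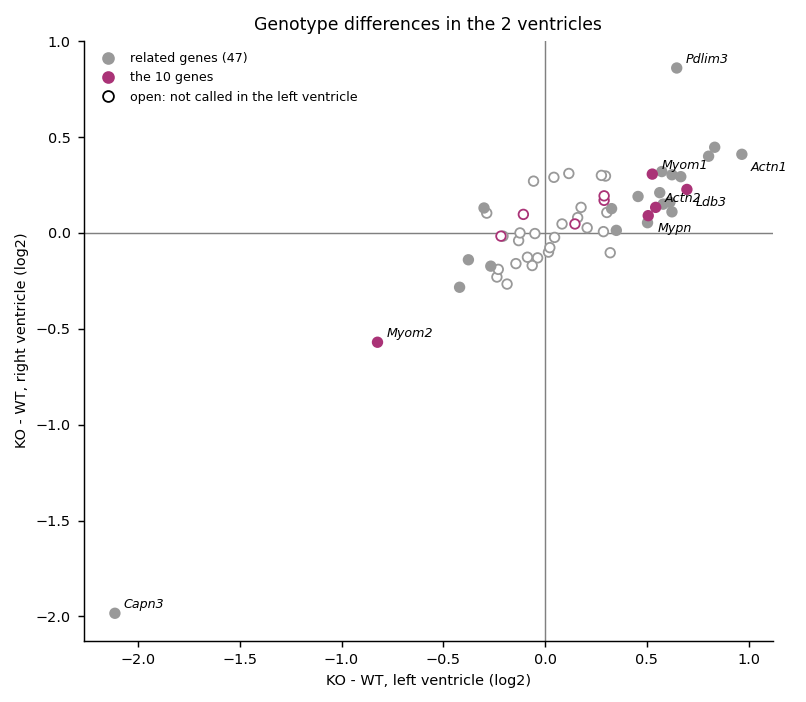
KO minus WT on the log2 scale in the left ventricle (horizontal axis) and in the right ventricle (vertical axis) for the 10 genes (purple) and 47 related genes (grey), with filled points for genes called in the left ventricle. Capn3 lies apart at -2.11 and -1.98, Pdlim3 has the highest right ventricular value at 0.86, and of the 10 genes Myom2 lies lowest on both axes.

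Of the paralogs of the 10 genes that mark skeletal muscle or other cells, Neb, the skeletal nebulin, had group means of 3.34 to 3.81, below the median of all values. Actn3, the fast-fibre alpha-actinin, had 5.82 to 6.14, Myoz3 5.84 to 6.05 and Myoz1 7.94 to 8.41. The non-muscle actinin Actn4 rose in KO LV by 0.50 (limma adjusted p = 0.0156), beside the rise of Actn1.

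Of 12 heart muscle markers, all 12 were measured and lay above the median of all values, and their mean was 13.24 to 13.27 in WT LV, 13.47 to 13.55 in KO LV, 13.33 to 13.54 in WT RV and 13.56 to 13.63 in KO RV. It was thus higher on every KO LV than on every WT LV array, and 3 of the 12 were called higher in KO LV: Myh6 (1.76), Mybpc3 (0.36) and Myh7 (0.31). The markers did not move as one. Of the 12, 5 had differences below 0, among them Tnni3 (-0.17), Tnnc1 (-0.07) and Pln (-0.16), whose groups did not overlap and which were not called. Without Myh6, the gene of the largest difference, the mean of the other 11 was 13.38 to 13.42 in WT LV and 13.46 to 13.54 in KO LV. With the mean of all 12 as a term in the model, the left ventricular differences were 0.23 for Myom1, 0.18 for Ldb3, 0.14 for Actn2 and -0.13 for Mypn, none called, and -1.62 for Myom2 (limma adjusted p = 0.00399). The right minus left difference of Myom2 was then 0.69 in WT (limma adjusted p = 0.232), not called, and 1.32 in KO (limma adjusted p = 0.000639). The marker mean and the group moved together in these fits. The mean of the 27 spiked poly-A control sets was 8.26 to 8.35 on the WT LV arrays and WT RV replicate 3, and 6.90 to 7.90 on the other 8 arrays. With that level as a term, Myom1 (0.41), Ldb3 (0.51) and Myom2 (-0.97) were called in the left ventricle, and Actn2 (0.44) and Mypn (0.33) were not. The sole RV array of high poly-A level, WT RV replicate 3, was 1.05 above the WT LV mean for Myom2, a value that rests on 1 RV array. Atrial muscle markers had means of 7.82 to 8.12 in WT LV and 8.09 to 8.44 in KO LV. Of these 6, 3 were called higher in KO LV (Nr2f1 0.74, Nr2f2 0.65 and Bmp10 0.60) and 0 lower. Myl7 (0.09), Sln (-0.06) and Stard10 (-0.18) were not called. Leukocyte markers had means of 7.33 to 7.57 in WT LV and 8.47 to 8.76 in KO LV, with 5 of 5 called higher. In KO LV 2 of 7 mesenchyme markers were called higher and 1 lower. Of 6 smooth muscle and pericyte markers 3 were called higher and 2 lower, and of 5 epicardial markers 1 was called higher. Endothelial markers had means of 8.79 to 9.05 in WT LV and 9.23 to 9.35 in KO LV, with 4 of 7 called higher (Cdh5 1.08, Tek 0.72, Kdr 0.71 and Tie1 0.61) and 1 lower (Egfl7 -0.69). Of the erythroid markers 1 of 4 measured was called lower, of the liver markers 2 of 4 and of the lung markers 2 of 3. The erythroid means were 6.39 to 6.81 in WT LV and 5.85 to 6.15 in KO LV, the liver means 7.52 to 9.46 and 6.03 to 7.31, and the lung means 5.98 to 6.10 and 5.62 to 5.77. The part of these markers in the results was not tested. Nos3 was lower in KO in both ventricles, with differences of -0.41 (limma adjusted p = 0.0376) in the left and -0.66 (limma adjusted p = 0.00983) in the right, though which part of the transcript its probe set reads is not given in the sources used here.

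**Figure D5:**
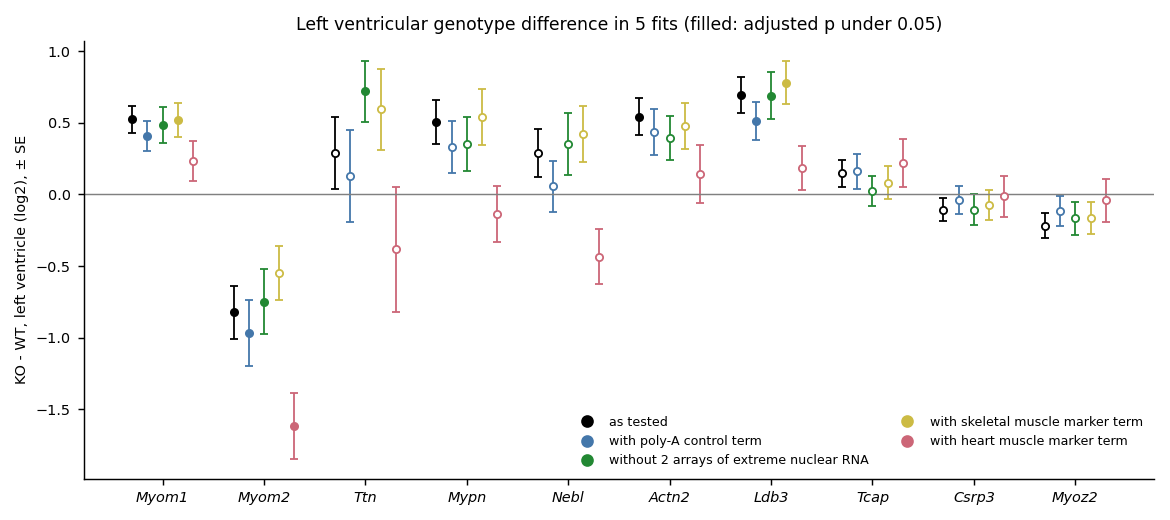
KO minus WT in the left ventricle on the log2 scale (vertical axis, with the SE as bars) for the 10 genes in 5 fits, with filled points for genes called. Myom1 and Ldb3 are called in every fit but that with the heart muscle marker term, where they lie at 0.23 and 0.18, and Myom2 in every fit but that with the skeletal muscle marker term, where it lies at -0.55.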

How the data were processed

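The authors' deposited values are log2 expression of 45101 probe sets for 12 arrays, made by them with RMA, per the submitters' processing notes, with no version given. The values run from 2.42 to 15.19. Since RMA gives the arrays a common distribution, a shift of most genes at once may not be seen. Biotin-labelled cRNA was made from 100 ng of RNA, per the labels' protocols. Scanner files were not analysed here, and the number of sample columns not used was 0.

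Groups and replicate numbers came from the labels. Of the probe sets 34958 had 1 gene symbol, 932 several and 9211 none, and only the first kind named a gene. Symbols were checked by gene ID against a RefSeq table (GRCm38.p6), and 0 changed. Array medians ran from 5.57 to 5.74, and arrays correlated across genes at 0.983 to 0.998.

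Differences were tested with limma 3.58.1 (lmFit and eBayes, R 4.3.3) in 1 model of 4 group means, with Benjamini-Hochberg adjustment over 18194 genes, a threshold of 0.05 and no filter on dim genes, in 5 comparisons. The code was tested on simulated data. Tables and figures were made with Python 3.11.15, pandas 2.3.3 and matplotlib 3.10.9. Other settings tried were a filter on dim genes, quantile normalization again, median centring, an intensity trend, array weights, the replicate block, the mean of the probe sets or each on its own, a threshold of 0.01, the compared groups alone, terms for poly-A controls and heart muscle markers, and leaving out arrays. A skeletal muscle term and fits within arrays of like poly-A control level were added after the data were seen. The poly-A mean includes 3 TrpnX sets at background.

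Same-numbered samples deviated together from their group means in KO LV and KO RV (r = 0.21, 0.291 and 0.265) and in KO RV and WT RV (0.111, 0.262 and 0.306). This is a hint from the values that the numbers may mark something shared. The labels state no pairing, and KO RV and WT RV came from different strains. In each other pair of groups at least 1 such r was under 0.1.

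The 10 genes, the related genes and the markers were chosen with earlier results of these data known. All 10 genes were named with every probe set. Of the related genes up to 5 called in each direction were named in a genotype comparison and up to 3 in a ventricle comparison, with paralogs of the 10 genes. The rule for promoters, genes called in 1 direction in at least 2 comparisons, gave only Myom2, which the promoter table does not hold.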

Additional observations from a re-analysis of the deposited data

Results flagged for a closer look

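A second Ldb3 probe set, 1416752_at, had all KO arrays above all WT arrays in the left ventricle and all KO arrays below all WT arrays in the right. It read 9.71, 9.39 and 9.72 in WT LV, 9.89, 9.85 and 9.92 in KO LV, 10.13, 9.94 and 9.98 in WT RV, and 9.79, 9.73 and 9.81 in KO RV. The genotype difference was 0.28 on the left and -0.24 on the right. The difference between these, right minus left, was -0.52, and its limma adjusted p over all probe sets was 0.382, so it did not pass. The same values give the ventricle difference, which was 0.41 in WT and -0.11 in KO and differs between genotypes by the same -0.52. The used Ldb3 set, 1433783_at, had -0.47 for this interaction and overlapping groups in the right ventricle.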

How the results depend on the processing

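Of the 10 genes, those called in KO minus WT LV numbered 5, and 3 with the poly-A control term, 1 with the heart muscle marker term and 2 with the skeletal muscle marker term. With these terms the count of all genes called went from 5617 to 2601, 276 and 3680. For KO minus WT RV the count was 0, and 1 without dim genes, with quantile normalization again, the intensity trend, the replicate block, the heart term or arrays of like poly-A level, and 2 with array weights, which also gave 2 interactions. Right minus left in WT gave 1, and 2 with the trend, 6 with array weights, and 0 with the heart term or arrays of like poly-A level, where a single RV array was left and the loss of the call is no sign of a smaller difference. In KO it gave 1, and 3 with the trend, array weights or the heart term and 2 with the poly-A term. Leaving out each array gave 4 to 6, 0 to 1, 0 to 2 (interaction), 1 to 5 and 1 to 2. The shares of all genes called were then 22.3% to 34.7%, 4.19% to 9.96%, 0.011% to 7.19% (interaction), 0.341% to 9.53% and 0.572% to 1.76%. The replicate block changed no other call of the 10 genes. Related genes numbered 20 in KO minus WT LV, and 12 at 0.01, where 3093 of all genes were called. They numbered 9 with the poly-A term, 9 without the arrays of extreme nuclear RNA (WT LV 2 and KO LV 3) and 1 with the heart term. Array weights gave 7, 5 (interaction), 16 and 8 in the other comparisons. Over all genes, array weights took the counts from 1490 to 2858 (KO minus WT RV) and from 4 to 1364 (interaction). For right minus left they went from 179 to 2212 in WT and from 208 to 684 in KO. Right minus left in WT gave 0 with each probe set alone, at 0.01, with the groups alone, without the extreme arrays and with each of the 3 terms. In KO it gave 0 with centring, each probe set or 0.01, 4 with the mean of sets or the groups alone, 1 without the extreme arrays or with the skeletal term, and 8 with the heart term. The heart term took the count of all genes in that comparison from 208 to 1083. Leaving out each array gave 14 to 21, 2 to 5, 0 to 9 (interaction), 0 to 14 and 0 to 4, beside the shares of all genes given above. Over all genes, leaving out WT RV replicate 3 took the interaction count from 4 to 1309 and right minus left in WT from 179 to 1734, and with the heart term KO minus WT LV fell from 5617 to 276; the cause was not tested.

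Signs reversed for genes not called, and for Mypn. With the heart term the reversed values in KO minus WT LV were Mypn -0.13, Nebl -0.43 and Ttn -0.38, and in KO minus WT RV Actn2 -0.079, Ldb3 -0.045, Mypn -0.25, Nebl -0.19, Ttn -0.19 and Myoz2 0.077. In the interaction they were Nebl 0.24 and Ttn 0.20, in right minus left WT Ldb3 -0.086, Myom1 -0.022, Mypn -0.23, Nebl -0.41 and Ttn -0.38, and in right minus left KO Actn2 -0.033, Myom1 -0.10, Nebl -0.16 and Ttn -0.18. With array weights KO minus WT RV was Mypn -0.039 and Myoz2 0.030, and right minus left KO was Ttn -0.075. With the poly-A term KO minus WT RV was Mypn -0.050 and Myoz2 0.064, and right minus left KO was Ttn -0.013, Myom1 -0.061 and Nebl -0.019. With the mean of sets KO minus WT RV was Ldb3 -0.11 and Mypn -0.072, and with centring Myoz2 0.02 and, in right minus left KO, Myom1 -0.01. With the skeletal term KO minus WT RV was Tcap -0.0068 and Myoz2 0.029. Within arrays of like poly-A level right minus left WT was Nebl -0.16 and Mypn -0.083, and KO minus WT RV was Mypn -0.11 and Myoz2 0.067. Without the extreme arrays right minus left KO was Ttn -0.27 and the Tcap interaction 0.022. Leaving out each array, the ranges that crossed 0 were Ttn -0.015 to 0.65 (KO minus WT LV), -0.48 to 0.19 (interaction) and -0.27 to 0.39 (right minus left KO), the Nebl interaction -0.29 to 0.07, Myom1 -0.012 to 0.038 (right minus left KO), and Mypn -0.11 to 0.21 and Myoz2 -0.073 to 0.067 (KO minus WT RV).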

Other observations

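For each of the 10 genes, the gene outside the list whose values followed it most closely over the 12 arrays was found by Pearson's r, as a description without a test, since the arrays share 4 groups. Myom1 was closest to Mfhas1 (r = 0.992) and Prkce (0.991), Ldb3 to Drosha (0.986), Mypn to Ctps (0.979) and Actn2 to Slc2a3 (0.973). Myom2 was closest to Ssbp2 (r = 0.97), Myoz2 to G0s2 (0.956), Nebl to Pdk1 (0.955), Csrp3 to As3mt (0.949) and Tcap to Il1rap (0.941). Ttn had the lowest such value, with Rev3l (r = 0.893).

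In the promoter windows of the genes not printed, a MEF2 site occurred at -166 in Ttn and at -33 in Myoz2, and a CArG box at -162 in 1 of 4 windows listed for Nebl. Csrp3 had no match to these motifs or to AGATAA or CATTCC in either of its windows.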
